A study of Gallus gallus with 8 samples.

Results

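Calbindin and calretinin, the intracellular calcium buffers encoded by CALB1 and CALB2, and the plasma membrane calcium pumps PMCA1 and PMCA2, encoded by ATP2B1 and ATP2B2, were followed in the sensory epithelia of 2 organs of the chick inner ear. The members were every probe set that the deposited annotation gives to 1 of these 4 genes, 7 probe sets of the 38439 on the array that are not controls. CALB1 (ENSGALG00000015914) has 1 probe set, and CALB2 (gene number 396255), ATP2B1 (ENSGALG00000011258) and ATP2B2 (ENSGALG00000004829) have 2 each. The tissues were the utricle, a balance organ, and the cochlea, the hearing organ, each with 4 arrays that the labels number as biological replicates. All epithelia came from chick embryos at embryonic day 20 to 21, from eggs incubated at 38 °C. They were microdissected to leave hair cells and supporting cells, with no treatment named in the labels. Each RNA sample pooled 10 to 20 epithelia of 1 organ, so an array is an average over animals and over both cell classes, and 0.08 μg of RNA was labelled per array, an amount the labels call nonstandard. The genome position of the probe sets was not used here, because no genome build is named in the sources used here.

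Hair cells take up calcium through the transduction channels of the hair bundle and through voltage-gated channels near the synapse. Calbindin and calretinin are EF-hand proteins that bind this calcium in the cytosol and shape how far and how long a calcium signal spreads. The plasma membrane pumps, driven by ATP, then carry calcium out of the cell. In mammals PMCA2 is the pump of the hair bundle, PMCA1 is found in the basolateral membrane of hair cells and in many other cells, and mice that lack PMCA2 are deaf and unsteady. In chick, calbindin is a long-used label of auditory hair cells.

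Values are log2 signals on the authors' GCRMA scale, on which 1 unit is a 2-fold difference, and levels of different probe sets are not set against each other because probes differ in brightness. On each array 41% to 41.8% of probe sets exceeded 4, the level below which a signal is treated as background here. Correlations across probe sets were 0.9929 to 0.996 among utricle arrays, 0.9945 to 0.9971 among cochlea arrays and 0.9619 to 0.9695 from one tissue to the other. Of the 19 hair cell markers on the array 17 passed the filter on low values, and these had mean log2 signals above 4 in both tissues. Of the 12 supporting cell markers 11 passed. These were above 4 in both tissues too, except JAG1, at 4.69 in the utricle and 2.54 in the cochlea. Markers of other cells were also above background. The globins HBBA and HBAD had mean log2 signals of 11.85 ± 2.11 and 9.94 ± 2.13 in the utricle (SD, n = 4 arrays). In the cochlea they were at 11.72 ± 2.15 and 9.89 ± 2.37. The summed linear signal of the 4 tested erythrocyte markers ran from 636 to 14772 over the utricle arrays. Over the cochlea arrays it ran from 597 to 23063. COL3A1, a fibroblast collagen, was at 8.70 in the utricle and 7.46 in the cochlea.

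The tissues were compared with limma, utricle minus cochlea, over the 16223 probe sets that exceeded 4 on 4 or more arrays, and calls were made at a Benjamini-Hochberg adjusted p under 0.05. All 7 probe sets of the 4 genes passed this filter, and where a gene has 2 they are called brighter and dimmer by their mean over the 8 arrays. CALB2 was far higher in the utricle, CALB1 and ATP2B2 were higher in the cochlea, and ATP2B1 was nearly level. Of the 7 probe sets 6 were called, 3 with a higher and 3 with a lower signal in the utricle, and the tissues did not overlap on the same 6. Among all probe sets tested, 51.5% were called, 26.4% as higher and 25.1% as lower in the utricle, and the tissues did not overlap on 48.7%. A call by itself therefore does not set the 4 genes apart, and their sizes and their patterns over the arrays are given below.

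**Figure D1:**
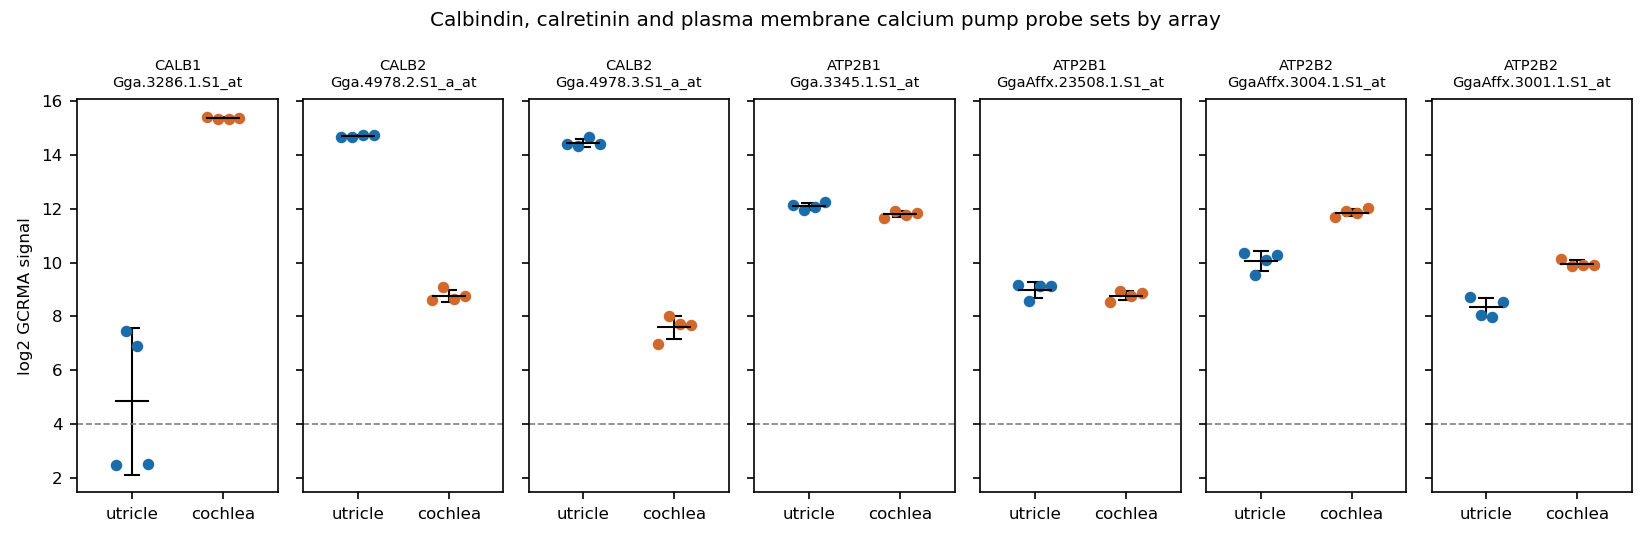
Log2 GCRMA signal (y axis) of the 7 probe sets of CALB1, CALB2, ATP2B1 and ATP2B2 on each of the 4 utricle arrays (blue, left) and the 4 cochlea arrays (orange, right), with the mean and SD in black and the background level of 4 dashed, the brighter probe set of a gene before the dimmer. CALB1 is at 15.33 to 15.42 on every cochlea array and at 2.49 to 7.47 on the utricle arrays, CALB2 is high in the utricle, and the ATP2B1 probe sets differ least between the tissues.

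CALB1 had log2 signals of 2.49, 7.47, 6.89 and 2.50 on the 4 utricle arrays, against 15.42, 15.33, 15.35 and 15.37 on the 4 cochlea arrays. The cochlea arrays were uniform and the tissues did not overlap, while the utricle arrays split into 2 at the array's background and 2 well above it. On a linear scale the 2 utricle arrays above background, numbers 2 and 3, held 0.418% and 0.28% of the cochlea mean signal. The authors' count of present calls (MAS 5.0, a separate detection algorithm) was 2 of 4 utricle arrays and 4 of 4 cochlea arrays for CALB1. In the cochlea only 7 to 13 probe sets of an array were brighter than CALB1.

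The mean of CALB1 was 4.84 ± 2.72 in the utricle and 15.37 ± 0.0347 in the cochlea (SD, n = 4 arrays each). The difference in log2 signal was -10.53 (95% confidence interval -13.15 to -7.92, limma adjusted p = 8.37e-05). With array values under 4 raised to 4, the mean of CALB1 was 879-fold lower in the utricle. This limits the effect of background values only, and the confidence interval reaches down to 242-fold. The cochlea values lie near the top of the scale, where the highest signal on any array was 15.92, and whether they are saturated was not tested. In the authors' deposited table CALB1 is called up in the cochlea with a fold of 1486.12 and a q-value of 0%.

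The size of the CALB1 difference depended on which utricle arrays entered. It was -9.75 without utricle array 1 and -9.75 without utricle array 4, -11.41 without utricle array 2 and -11.22 without utricle array 3, with adjusted p-values of 2.41e-04, 2.36e-04, 7.43e-05 and 1.75e-04. Only 5 of the 16223 tested probe sets had a larger SD over the utricle arrays than CALB1. Among them was that of PMP2, a marker of Schwann cells and glia, with a utricle SD of 3.37. Of the 6 tested markers of these cells 1 was higher and 1 lower in the utricle. Their summed linear signals were 5934 to 14562 over the utricle arrays and 6750 to 8368 over the cochlea arrays. The part of these cells in the CALB1 spread was not tested. Over the cochlea arrays 15734 tested probe sets had a larger SD than CALB1, but at this height of the scale a small SD is not given as a steady transcript level.

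The array names in the workbook add a grouping to this split. They begin with 1 of 2 codes, which the labels do not explain, and 6 arrays carry the larger code and 2 the smaller. Of the 6, 5 carry the same number after the code, 2 from the utricle and 3 from the cochlea. The CALB1 values of 7.47 and 6.89 both belong to this set of 5, and the values of 2.50 and 2.49 belong to the other 2 utricle arrays, 1 of the larger code and 1 of the smaller. Within the 5 arrays the CALB1 difference was -8.17 (-8.65 to -7.70, adjusted p = 2.43e-05), and between the utricle array and the cochlea array of the smaller code it was -12.93, with no test. The part of the array grouping in the CALB1 signal of the utricle was not tested. This set of 5 arrays was chosen after the data were seen.

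Most tested markers of neurons, muscle and endothelium were lower in the utricle, the direction of CALB1. Neurons are another place where calbindin can be found. Of the 12 neuron markers on the array 8 were tested, 2 were higher and 5 lower in the utricle, and the sum of their linear signals was 4813 to 6666 over the utricle arrays and 26296 to 30100 over the cochlea arrays. In these sums ISL1 weighed most, with mean log2 signals of 11.90 in the utricle and 13.86 in the cochlea. NEFM, the neurofilament medium chain of axons, had the largest log2 difference of these markers. Its log2 signals were 2.43 to 2.87 in the utricle and 12.79 to 12.86 in the cochlea. NEFH, SYT1, STMN2 and MAPT, also markers of neurons, did not pass the filter. The called markers higher in the utricle were NTRK3, a neurotrophin receptor, 9.11-fold, and SNAP25, a synaptic protein, 1.41-fold. Of the 13 muscle markers on the array 4 were tested, none was higher and 3 were lower in the utricle, with summed linear signals of 884 to 1444 there and 3133 to 4149 in the cochlea, and MYOD1 and MYOG, the defining ones, did not pass the filter. Of the 3 endothelial markers tested, of 11, 1 was higher and 2 were lower in the utricle, and the sums overlapped, at 1789 to 2701 and 1934 to 2424. The part of RNA from these cells in the CALB1 difference was not tested. As in every bulk comparison, fewer cells of a type and less RNA per cell cannot be told apart.

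CALB2, which encodes calretinin, ran the other way on both of its probe sets. The brighter CALB2 probe set had log2 signals of 14.66, 14.66, 14.74 and 14.74 in the utricle, against 8.59, 9.08, 8.64 and 8.77 in the cochlea. The dimmer CALB2 probe set had 14.42, 14.32, 14.65 and 14.41 in the utricle, against 6.97, 8.01, 7.70 and 7.67 in the cochlea. Every utricle value was far above every cochlea value, and every cochlea value was well above background, with present calls on 4 of 4 arrays in each tissue. So CALB2 had a measurable signal in the cochlea, unlike CALB1 on 2 of the utricle arrays.

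The difference in log2 signal of the brighter CALB2 probe set was 5.93 (5.67 to 6.19, limma adjusted p = 6.43e-09), with means of 14.70 ± 0.048 in the utricle and 8.77 ± 0.219 in the cochlea (SD, n = 4 arrays each), a fold of 61. That of the dimmer CALB2 probe set was 6.86 (6.39 to 7.33, adjusted p = 4.60e-08), with means of 14.45 ± 0.138 and 7.59 ± 0.442, a fold of 116. They rank 33rd and 14th towards the utricle among the tested probe sets. Within the 5 arrays of the common array code the differences were 5.87 and 6.69, and between the 2 arrays of the smaller code 6.06 and 7.46. The authors' deposited table calls both up in the utricle, with folds of 65.85 and 122.96 and a q-value of 0%.

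The 2 CALB2 probe sets gave folds of different size. Within an array, the brighter CALB2 probe set exceeded the dimmer CALB2 probe set by 0.25 ± 0.115 in the utricle and by 1.18 ± 0.304 in the cochlea (log2, SD, n = 4 arrays each), a difference of -0.93. The exact permutation test over arrays (two-sided), without pairing by number, gave p = 0.0286, the smallest that 4 against 4 unpaired arrays allow. After Benjamini-Hochberg adjustment over the 3 pairs of probe sets compared it was 0.0857. The pairs of ATP2B1 and ATP2B2 gave differences of 0.06 (adjusted exact permutation p = 0.714) and -0.16 (0.643). No pair passed the adjusted test.

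Markers of several other cell types were higher in the utricle, as CALB2 was. All 5 leukocyte markers tested, of 9 on the array, were higher in the utricle, with summed linear signals of 4247 to 5256 there and 1661 to 2230 in the cochlea. All 3 melanocyte markers tested, of 7 on the array, were also higher in the utricle, at 913 to 1169 and 240 to 309. Their defining markers PTPRC and SPI1 for leukocytes, and TYR and PMEL for melanocytes, did not pass the filter. Of the 4 fibroblast markers tested, of 9 on the array, 2 were higher and none lower, with overlapping sums of 1097 to 2214 and 533 to 1861. Of the 3 markers of dark cells and other ion-secreting epithelium tested, of 7, 1 was higher and none lower, with overlapping sums of 1085 to 1625 and 824 to 1322. The 6 cartilage and bone markers tested, of 12 on the array, were divided, with 2 higher and 3 lower in the utricle. Their sums did not overlap, at 16308 to 20947 in the utricle and 6903 to 13881 in the cochlea. The part of all these cells in the CALB2 difference was not tested. Hair cell markers were divided, with 7 of 17 higher and 7 lower in the utricle. Of the 11 supporting cell markers 6 were higher and 3 lower in the utricle.

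**Figure D2:**
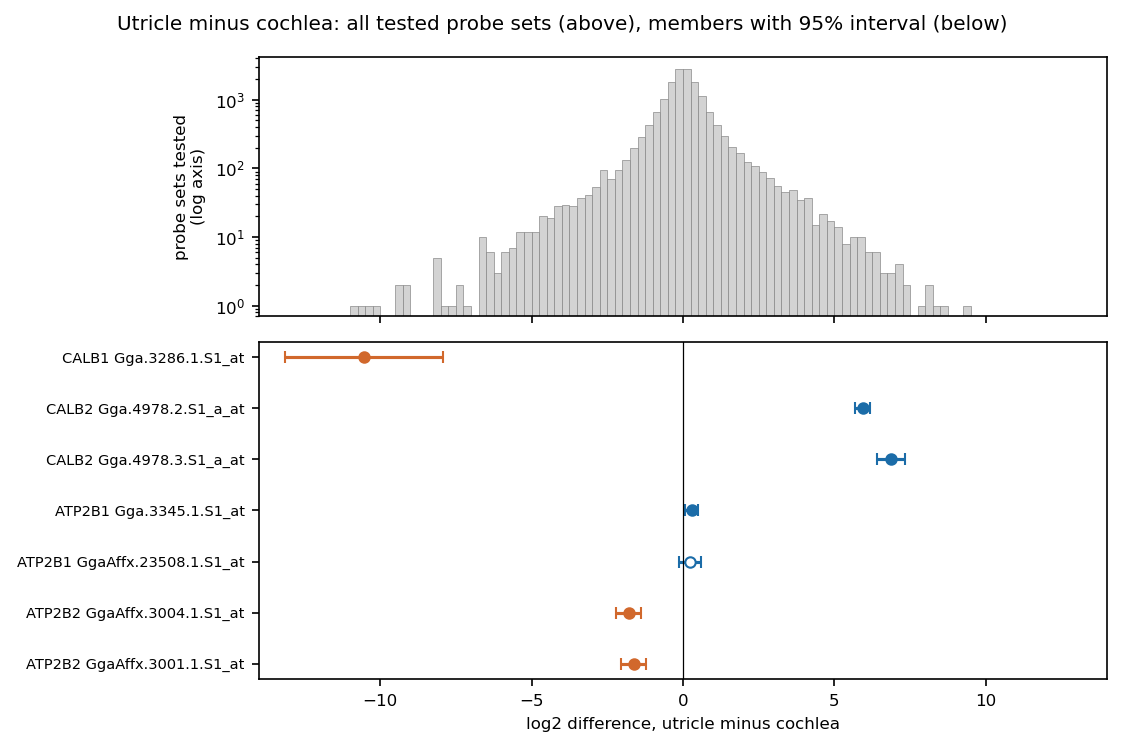
Log2 difference, utricle minus cochlea (x axis), of all 16223 tested probe sets as a histogram with a log count axis (above) and of the 7 probe sets of the 4 genes with 95% confidence intervals (below), filled where the adjusted p was under 0.05. CALB1 at -10.53 and CALB2 at 5.93 and 6.86 lie in the thin tails, ATP2B2 at -1.79 and -1.63 on the shoulder and ATP2B1 at 0.29 and 0.22 in the bulk.

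ATP2B2, which encodes PMCA2, was lower in the utricle on both of its probe sets. The brighter ATP2B2 probe set had log2 signals of 10.35, 9.52, 10.11 and 10.28 in the utricle, against 11.69, 11.90, 11.83 and 12.02 in the cochlea. The dimmer ATP2B2 probe set had 8.73, 8.05, 7.98 and 8.55 in the utricle, against 10.14, 9.88, 9.91 and 9.91 in the cochlea. The tissues did not overlap on either, and all 8 arrays were above background. The utricle arrays varied more, with SDs of 0.378 and 0.369 against 0.139 and 0.122 in the cochlea.

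The difference of the brighter ATP2B2 probe set was -1.79 (-2.21 to -1.38, limma adjusted p = 5.50e-05), which is 3.47-fold lower in the utricle. That of the dimmer ATP2B2 probe set was -1.63 (-2.04 to -1.23, adjusted p = 8.14e-05), or 3.1-fold lower. Their ranks towards the cochlea were 714 and 819. Within the 5 arrays of the common array code the differences were -2.10 and -1.88, and between the 2 arrays of the smaller code -1.34 and -1.42. The authors' deposited table calls both up in the cochlea, with folds of 3.43 and 3.11 and a q-value of 0%. Of the markers given above, 5 of 8 neuron markers and 3 of 4 muscle markers were also lower in the utricle, and their part in the ATP2B2 difference was not tested either.

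ATP2B1, which encodes PMCA1, was nearly level between the tissues. The brighter ATP2B1 probe set had log2 signals of 12.13, 11.95, 12.05 and 12.26 in the utricle, against 11.67, 11.91, 11.78 and 11.86 in the cochlea. The dimmer ATP2B1 probe set had 9.16, 8.56, 9.13 and 9.12 in the utricle, against 8.53, 8.93, 8.74 and 8.86 in the cochlea. On the first the lowest utricle array lay just above the highest cochlea array, and on the second the tissues overlapped through utricle array 2.

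The difference of the brighter ATP2B1 probe set was 0.29 (0.07 to 0.51, limma adjusted p = 0.0341), a fold of 1.22, and that of the dimmer ATP2B1 probe set was 0.22 (-0.14 to 0.58, adjusted p = 0.264). The call on the first was lost without any 1 of utricle arrays 1, 3 and 4 (adjusted p = 0.0734, 0.055 and 0.0834) and without any 1 of cochlea arrays 1, 3 and 4 (0.0859, 0.0771 and 0.0509). It was kept without utricle array 2 (0.0218) and without cochlea array 2 (0.0364). It was also lost when the 2 probe sets were averaged (0.26, adjusted p = 0.102). The second probe set was called only when utricle array 2 was left out (0.37, adjusted p = 0.0278). Within the 5 arrays of the common array code the differences were 0.15 (adjusted p = 0.332) and -0.003 (0.993), and between the 2 arrays of the smaller code 0.45 and 0.63. The authors' deposited table calls neither probe set. An ATP2B1 difference of more than 0.58 in either direction lies outside both intervals.

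**Figure D3:**
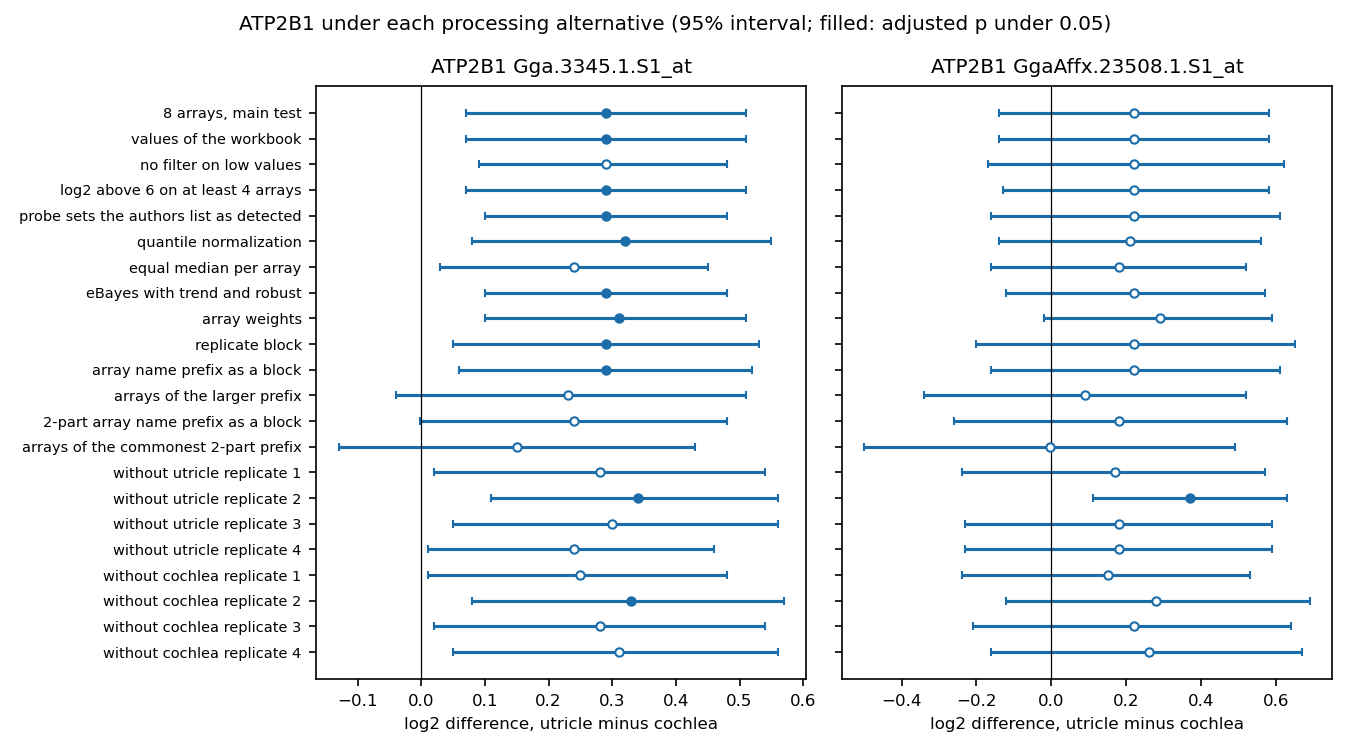
Log2 difference, utricle minus cochlea (x axis, 95% confidence interval), of the 2 ATP2B1 probe sets with all 8 arrays and under each processing alternative (rows), filled where the adjusted p was under 0.05. The brighter ATP2B1 probe set (left) stays between 0.15 and 0.34 in every row while its call comes and goes, and the dimmer one (right) lies between -0.003 and 0.37.

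The balance between the 2 pumps differed between the organs. The brightest ATP2B1 probe set exceeded the brightest ATP2B2 probe set within an array by 1.78 to 2.43 in the utricle and by -0.16 to 0.01 in the cochlea (log2). These within-array gaps are not ratios of transcripts, since the probe sets differ in brightness, but their shift between tissues can be tested. The mean gap was 2.03 ± 0.278 in the utricle and -0.05 ± 0.0771 in the cochlea (SD, n = 4 arrays each), and the difference of the differences was 2.08, a 4.24-fold shift of ATP2B1 over ATP2B2 towards the utricle. The exact permutation test over arrays (two-sided) gave p = 0.0286, the smallest that 4 against 4 unpaired arrays allow. It did not pair the arrays by number. Averaged over both probe sets of each gene the shift was 1.97, with the same p. The shift of 2.08 is made of the differences given above, 0.29 for ATP2B1 and -1.79 for ATP2B2, and is not separate from them.

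The genes whose pattern over the 8 arrays was nearest to each member were found by the root mean square difference of log2 signals, each centred on its own mean, over 6650 genes with a symbol. This measure weighs the size of the tissue difference as well as the spread within a tissue. Genes were picked over these same 8 arrays, so a high or low array shared with a member is part of the choice and not a separate result. For CALB2 the nearest were FAM19A1, a secreted brain protein, at 0.0805, BMP2, a bone morphogenetic protein, at 0.178, and HHIP, which binds hedgehog proteins, at 0.214. FAM19A1 had log2 signals of 8.67 to 9.05 in the utricle and 2.79 to 3.22 in the cochlea. FAM19A1 and HHIP were under 4 on every cochlea array. Their likeness to CALB2 there sets background signals against CALB2 signals of 8.59 to 9.08, well above background.

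For CALB1 no gene came close. The nearest were NR2F2, a nuclear receptor, at 1.48, SLC34A2, a sodium phosphate transporter, at 1.5, and NEFM at 1.59. NR2F2 had log2 signals of 4.84, 7.07, 7.34 and 4.87 in the utricle and 13.96 to 14.29 in the cochlea, so it too was higher on utricle arrays 2 and 3 than on 1 and 4. SLC34A2 had 3.15, 4.27, 3.92 and 3.22 in the utricle, the same order in a smaller range, and NEFM had 2.43, 2.57, 2.87 and 2.51, at background throughout. Apart from CALB1, 2 named probe sets, those of NEFM and SLC34A2, were above 12 on every cochlea array and below 4 on at least 1 utricle array.

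For ATP2B2 the nearest were PPP1R14D, an inhibitor of protein phosphatase 1, at 0.182, IGFBP2, which binds insulin-like growth factors, at 0.186, and CALML4, a calmodulin-like EF-hand protein, at 0.199. All 3, chosen by likeness over these same arrays, shared the low value on utricle array 2. CALML4 was at 10.03 there, against 10.71 to 10.85 on the other utricle arrays. For ATP2B1 the nearest were DHX38 at 0.0545, RAE1 at 0.0615 and DCP2 at 0.062, which act in splicing, RNA export and mRNA decapping, with tissue differences of 0.23 to 0.31.

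**Figure D4:**
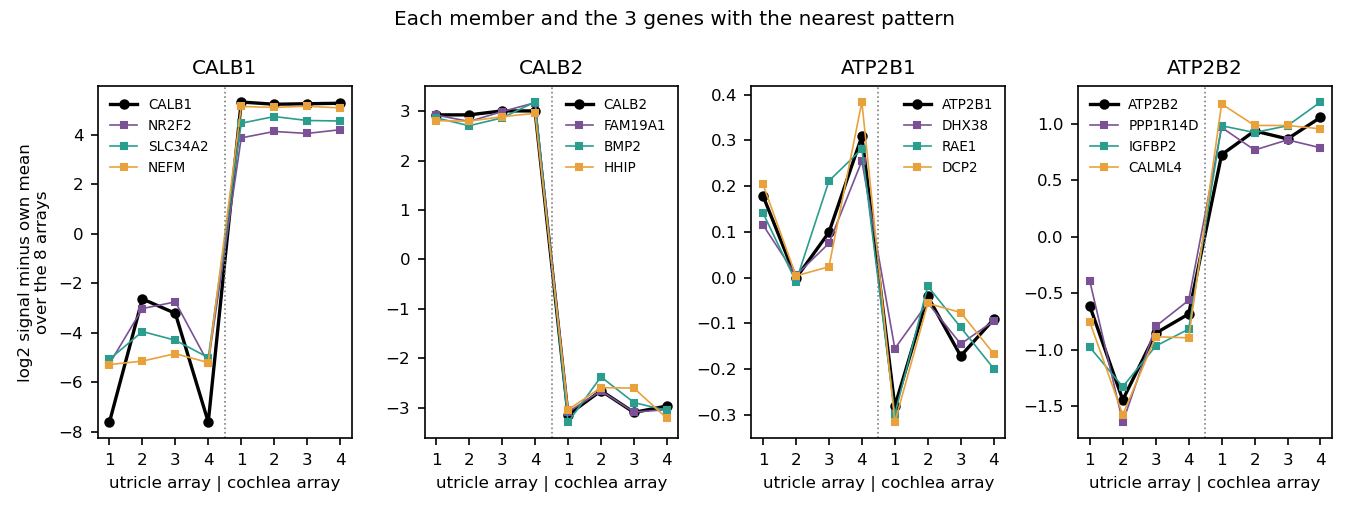
Log2 signal minus the gene's own mean over the 8 arrays (y axis) for each member's brightest probe set (black) and its 3 nearest genes (colours), utricle arrays 1 to 4 on the left and cochlea arrays 1 to 4 on the right of the dotted line. The scales differ between panels, and in the CALB1 panel the utricle values spread further apart than those of its 3 nearest genes.

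The other genes that buffer or move calcium were examined as 8 lists, each gene by its brightest tested probe set, with p-values adjusted over all 8266 genes tested. Of all genes tested, 54.6% were called, 27.2% as higher and 27.3% as lower in the utricle, and the median log2 difference was 0.00. Of the 93 genes of the lists that were tested, 62.4% were called, 16 as higher and 42 as lower in the utricle, and their median was -0.24. The lists are described beside these background values, with no test of a list.

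Among the other EF-hand calcium binding proteins, 24 of 31 on the array were tested, 3 rose and 13 fell in the utricle and 8 did not pass, with a median of -0.68. CIB3, a calcium and integrin binding protein that in mice belongs to the transduction complex, was at 8.67 to 9.21 in the utricle and at background in the cochlea, 2.23 to 2.30, higher in the utricle by at least 30.4-fold (limma adjusted p = 2.16e-09). Its relative CIB2, of the same complex, had the opposite sign, at 11.17 ± 0.331 in the utricle and 13.50 ± 0.0569 in the cochlea, 5.02-fold lower in the utricle (adjusted p = 3.55e-06). CIB3 and CIB2 thus differed in opposite directions between the organs. Whether relatives do so more often than the calls over all genes would give was not tested.

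The other named EF-hand proteins differed less than CIB3. CABP1, a calmodulin-like regulator of calcium channels, was 3.79-fold higher than in the cochlea (adjusted p = 3.90e-06), and HPCAL1, a neuronal calcium sensor, 1.27-fold (0.033), a call that was lost without any 1 of the 4 utricle arrays and cochlea arrays 1, 3 and 4 (0.0558 to 0.08). NCALD, also a neuronal calcium sensor, was 8.34-fold lower in the utricle on its brightest probe set (adjusted p = 2.46e-07) but its other probe set differed by -0.62 in log2. PEF1, a penta-EF-hand protein, was 2.87-fold lower in the utricle (adjusted p = 1.72e-05).

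OCM1, which the deposited sheet calls parvalbumin 3, is the oncomodulin-type calcium buffer of chick hair cells. Its log2 signals were 15.61, 15.51, 15.61 and 15.66 in the utricle, against 15.62, 15.52, 15.62 and 15.64 in the cochlea. It was level and among the 10 brightest probe sets of every array, and its difference of -0.002 had an interval of -0.17 to 0.16 (adjusted p = 0.981). Whether these signals are saturated was not tested. PVALB, the muscle-type parvalbumin, was at 2.37 to 4.80 in the utricle and 3.00 to 4.96 in the cochlea and did not pass the filter. By the authors' count it was nonetheless called present on 4 of 4 arrays in each tissue. The probe set described as calbindin D-9K, a different gene from CALB1, was at 2.22 on all 8 arrays.

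Of the other calcium pumps and exchangers 6 of 14 on the array were tested, 1 rose and none fell in the utricle and 5 did not pass, with a median of 0.11. The 1 called gene was ATP2C2, a secretory pathway calcium pump, at 10.18 ± 0.0467 in the utricle and 8.75 ± 0.307 in the cochlea (SD, n = 4 arrays each), 2.69-fold higher than in the cochlea (limma adjusted p = 4.93e-05). Its other probe set gave a log2 difference of 1.45, against 1.43 on this one. Its relative ATP2C1 differed by 0.13 (-0.08 to 0.35), and ATP2A2, the calcium pump of the endoplasmic reticulum, by 0.14 (-0.28 to 0.56). The mitochondrial exchanger SLC8B1 differed by -0.24 (-0.62 to 0.14), SLC24A5 by 0.05 (-0.13 to 0.22) and SLC24A2, at 3.78 to 4.54 over all arrays, by 0.08 (-0.28 to 0.45).

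Several pumps and exchangers had log2 signals under 4 on every array. Of the plasma membrane pumps other than the members, ATP2B4 had 4 probe sets, all at 2.22 to 3.02 on every array. Per-array detection calls of these probe sets were not used here, and a low GCRMA signal is not given as absence of PMCA4 transcripts. ATP2A1, ATP2A3, SLC8A1, SLC8A3, SLC24A1, SLC24A3 and SLC24A4 did not exceed 3.09 on any array. The authors' count of present calls was nonetheless 1 of 4 utricle arrays and 4 of 4 cochlea arrays on 2 of the 3 SLC24A4 probe sets. Whether these probe sets detect their transcripts was not tested.

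Of the partners of the plasma membrane pumps 6 of 7 on the array were tested, 1 rose and 2 fell in the utricle and 3 did not pass, with a median of -0.02. BSG and NPTN, the basigin and neuroplastin that in mammals form complexes with these pumps, had log2 signals of 13.60 ± 0.0956 and 13.24 ± 0.116 in the utricle and 14.01 ± 0.219 and 13.08 ± 0.106 in the cochlea. BSG was 1.33-fold lower in the utricle on its brightest probe set (adjusted p = 0.0182), which 2 further probe sets did not share (-0.28, adjusted p = 0.345, and -0.03, 0.943, over all probe sets), and this call was lost without cochlea array 3 (0.0512). NPTN differed by 0.16 (-0.05 to 0.37) on its brightest probe set, and its 2 others gave 0.72 (adjusted p = 0.0372 over all probe sets, a call) and 0.19 (0.113).

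Scaffolds of the pumps made up the rest of that list. SLC9A3R1, a PDZ scaffold, was at 2.77 to 3.71 in the utricle and 4.18 to 5.33 in the cochlea, at least 1.65-fold lower in the utricle (adjusted p = 0.00292), close to background. SLC9A3R2, its relative, differed by -0.05 (-0.27 to 0.17), and CASK, a scaffold kinase, by 0.01 (-0.17 to 0.19), with signs that turned under other scalings. DLG1, also a scaffold, was 1.18-fold higher than in the cochlea on its brightest probe set (adjusted p = 0.038). Its 2 other probe sets gave 0.17 (0.158 over all probe sets) and -0.09 (0.799), and the call was lost without any 1 of the utricle arrays 1, 2 and 3 and the 4 cochlea arrays (0.0545 to 0.0955).

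Of the genes of mitochondrial calcium uptake 7 of 9 on the array were tested, 2 rose and 3 fell in the utricle and 2 did not pass, with a median of -0.08. The outer membrane channels VDAC1, VDAC2 and VDAC3 were 2.26-fold, 1.36-fold and 1.26-fold lower in the utricle (limma adjusted p = 2.80e-06, 0.00121 and 0.0136). MCUB, a subunit of the uniporter that limits its flow, exceeded the cochlea 1.59-fold (0.00689). MICU2 differed by 0.05 (-0.15 to 0.26). LETM1, close to background at 4.70 to 4.90 over all arrays, differed by -0.08 (-0.24 to 0.09). LETM1 had present calls on 2 of 4 arrays in each tissue. The pore subunit MCU was at 2.28 to 2.41 on its 2 probe sets and was not tested.

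Of the calcium entry channels 17 of 38 on the array were tested, 3 rose and 8 fell in the utricle and 6 did not pass, with a median of -0.25. The acetylcholine receptor subunits of the efferent synapse, through which calcium enters hair cells, had opposite signs. CHRNA9 was 4-fold higher than in the cochlea (adjusted p = 3.56e-04) and CHRNA10 was 2.68-fold lower in the utricle (adjusted p = 6.53e-04). TRPV6 exceeded the cochlea 2.82-fold by the deposited values (1.46 to 5.44, adjusted p = 0.0148), and 2.07-fold with values under 4 raised to 4. This call was lost with no filter (0.0587) and in the arrays of the larger code (0.0595). With quantile normalization and with equal medians TRPV6 did not pass the filter and was not tested. MCOLN3, a channel of lysosomes and hair cells, and TRPM7 were 3.3-fold and 2.57-fold lower in the utricle (4.99e-04 and 0.00156). CACNA1D, the channel pore of hair cell synapses, was at 11.02, 11.08, 10.60 and 11.22 in the utricle, against 10.69, 10.80, 10.68 and 10.79 in the cochlea, a difference of 0.24 (-0.05 to 0.54, adjusted p = 0.147). It was called without utricle array 3 (0.37, adjusted p = 0.00985).

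Of the calcium-activated potassium and chloride channels 5 of 11 on the array were tested, 2 rose and 2 fell in the utricle and 1 did not pass, with a median of -0.30. ANO2, a calcium-activated chloride channel, was at 7.63 to 8.05 in the utricle and at 2.22 on each cochlea array. It was higher in the utricle by at least 14.5-fold (adjusted p = 3.58e-09). ANO1, its relative, was 3.48-fold higher by the deposited values (2.23 to 5.43, adjusted p = 6.94e-04). With values under 4 raised to 4 it was 3.33-fold higher. KCNN1, a small-conductance potassium channel, was 3.64-fold lower in the utricle (2.09e-05). KCNMB4, a partner of the large-conductance channel, was 4.02-fold lower by the deposited values (2.47 to 6.55, adjusted p = 6.22e-04). With values under 4 raised to 4 it was 3.5-fold lower. KCNMA1, the pore of the large-conductance channel that tunes chick auditory hair cells, was at 10.24, 9.95, 9.79 and 10.14 in the utricle, against 10.32, 10.52, 10.03 and 10.47 in the cochlea. Its difference was -0.30 (-0.62 to 0.01, adjusted p = 0.0964), and it passed with the replicate number as a block (0.0404) and without cochlea array 3 (-0.40, 0.0353).

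Of the genes of endoplasmic reticulum calcium release, storage and store-operated entry 12 of 20 on the array were tested, 2 rose and 5 fell in the utricle and 5 did not pass, with a median of 0.05. ORAI2, a store-operated channel, was 2.21-fold higher than in the cochlea (adjusted p = 2.79e-05), and its sensors STIM1 and STIM2 were 1.52-fold and 2-fold lower in the utricle (2.71e-04 and 5.81e-04). ASPH, whose locus also encodes junctin, was 2.31-fold higher in the utricle (0.0223) on its brightest probe set, on which the tissues overlapped (exact permutation p = 0.0857). The call was lost with no filter (adjusted p = 0.0782). It was also lost without any 1 of utricle arrays 1 and 4 and cochlea arrays 2, 3 and 4 (0.0505 to 0.0631). RYR2, a release channel, was 2.83-fold lower in the utricle by the deposited values (2.13 to 3.75, adjusted p = 1.30e-04). With values under 4 raised to 4 it was 2.72-fold lower.

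Of the calcium-dependent kinases, phosphatases and proteases 16 of 23 on the array were tested, 2 rose and 9 fell in the utricle and 5 did not pass, with a median of -0.52. PRKCB, a protein kinase C, was 1.98-fold (adjusted p = 0.0131) and CAMK4, a calmodulin kinase, 1.42-fold (0.0174) higher in the utricle. The tissues overlapped on PRKCB (exact permutation p = 0.0571), whose call was lost with no filter (adjusted p = 0.0505) and in the arrays of the larger code (0.052), and the CAMK4 call was lost in those arrays (0.0643). CAPN7, a calpain protease, was 4.5-fold lower in the utricle (1.61e-05). CAPN3, also a calpain, was 10-fold lower by the deposited values (4.52 to 22.2, adjusted p = 5.59e-04). With values under 4 raised to 4 it was 4.76-fold lower. CAMK2G, a subunit of calmodulin kinase II, was 1.98-fold lower (7.54e-05). With no filter on low values 6 genes of this list were called, against 11 with it.

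**Figure D5:**
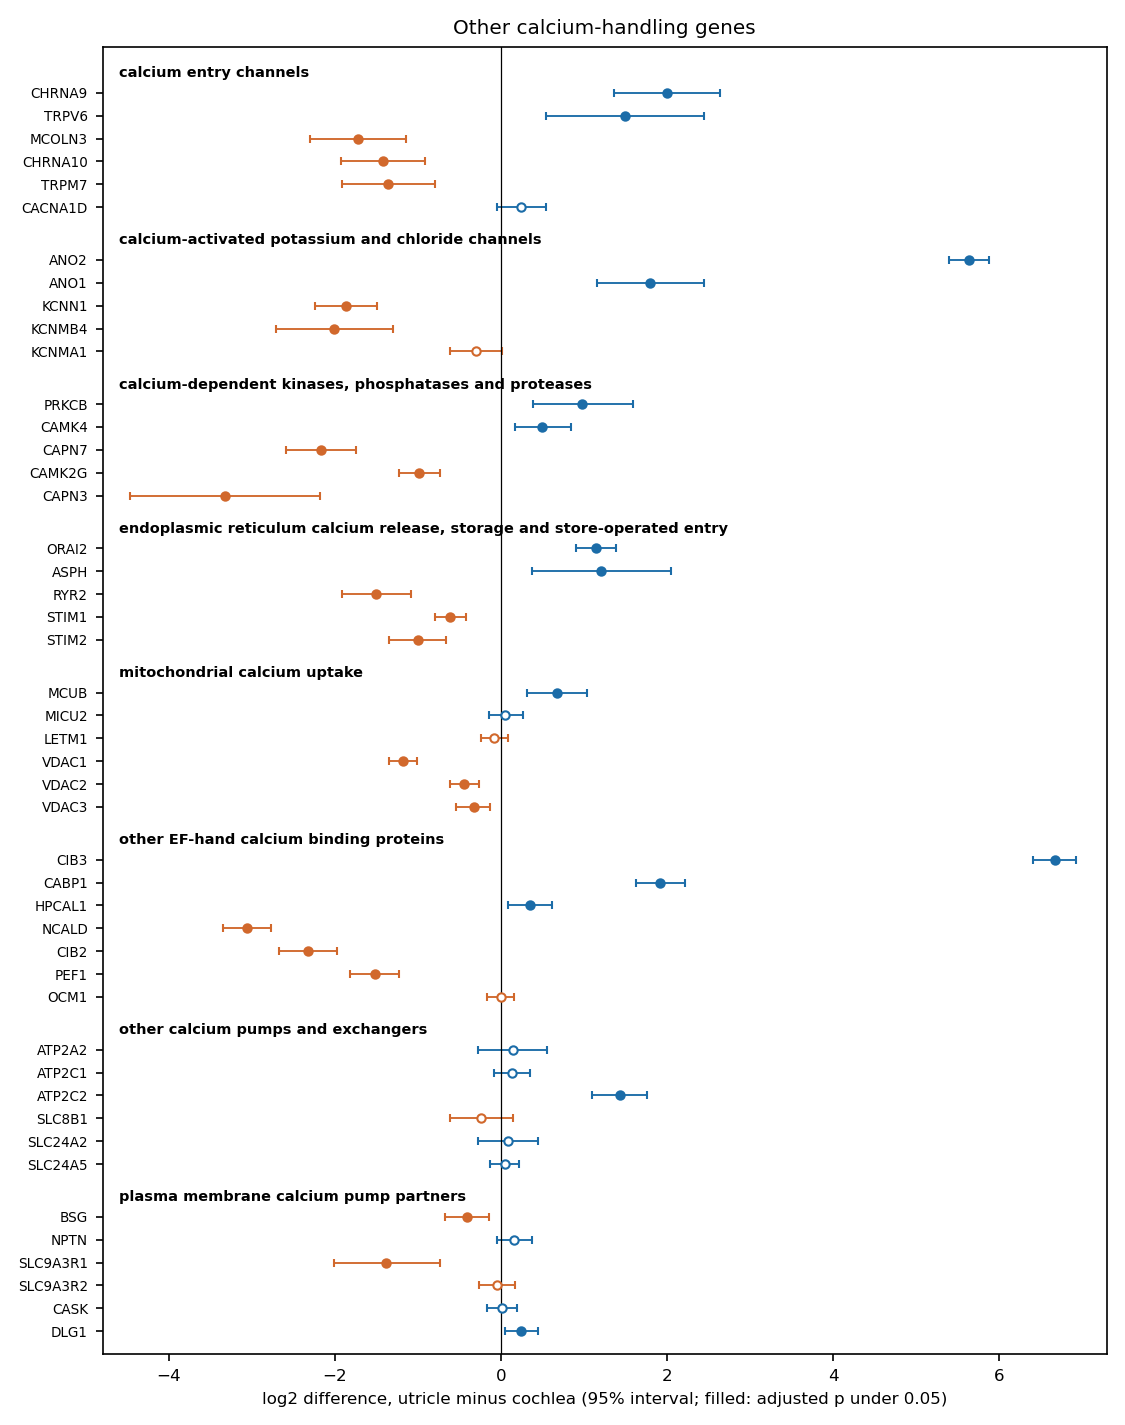
Log2 difference, utricle minus cochlea (x axis, 95% confidence interval), of the calcium-handling genes named in the text, grouped by list, blue above 0 and orange below 0, filled where the adjusted p was under 0.05. CIB3 at 6.67 and ANO2 at 5.64 are furthest towards the utricle, and CAPN3 at -3.33, with utricle signals under 4, and NCALD at -3.06 lie far towards the cochlea, while OCM1 and most other calcium pumps lie near 0.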

How the data were processed

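Total RNA of 4 utricle and 4 cochlea samples was measured on Affymetrix chicken arrays. The deposited log2 values were made by the authors with GCRMA (background by GC content, then quantile normalization, then median polish, per the read-me of their workbook, and GCRMA is also named in the submitters' processing notes). Its version is not given in the sources used here. The workbook also holds the authors' SAM comparison, with the ratio of the tissues as a fold and a q-value in percent, and their count of present calls, all deposited by the authors. A further 136 per-array columns of the workbook were not used.

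From the 38535 probe sets 96 controls were left out. RefSeq symbols named 18553 probe sets of 10916 genes, descriptions read by hand named 75 probe sets of 44 genes, and 14193 have no name on the sheet. The main test used lmFit and eBayes of limma 3.58.1 (R 4.3.3, two-sided) over probe sets above 4 on at least 4 arrays, with Benjamini-Hochberg adjustment over all of them. A gene with several tested probe sets was represented by the brightest, by its mean over all arrays. Single values were tested by exact permutation in scipy 1.17.1, without pairing arrays by number. An array value under 4 was raised to 4 for folds written "at least" or given with values raised to 4. Such a fold limits the effect of background values only, and the intervals are those of the values as deposited. The script was tested on simulated data with known differences. The number of arrays limits the precision.

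Named were every member probe set, every tested gene of the lists of pumps and exchangers, pump partners and mitochondrial uptake, up to 3 genes per direction with the smallest adjusted p of each other list, the 3 genes nearest to each member, and OCM1, PVALB, KCNMA1 and CACNA1D. NEFM, NR2F2 and SLC34A2 came in as nearest genes, and the markers, calbindin D-9K and the pumps at background were named after their values were seen. Some genes that this rule names are not reported here. The members and all lists were chosen with earlier results of these data known.

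Deviations of same-numbered arrays from their tissue means correlated at 0.552, 0.48, 0.404 and 0.144 for numbers 1 to 4, each above 0.1, which was read as pairing by number. The basis is these values alone, as no label explains the numbers. Number 4 is the weakest, since for cochlea array 4 the closest was utricle array 3 (0.304). The array names also hold a number after the tissue, which does not match between the tissues for every array and was not used. Array 1 of each tissue carries the smaller code, so for number 1 pairing and code cannot be told apart. The alternatives were other values, filters, normalizations, variance models, the replicate block, array-name groups and leaving out each array.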

Additional observations from a re-analysis of the deposited data

Results flagged for a closer look

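In a group of 4 arrays a value was singled out where its gap to the nearest other, divided by the range of the group, exceeded Dixon's critical value at 95%. This was so in 12 of 130 groups, where chance gives about 1 in 20 for independent normal values. The groups share the same arrays and include tied values near background, so no excess over chance is read from this count.

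Utricle array 2 lay below the other utricle arrays by this measure for 3 genes. It held 8.56 for ATP2B1 on the dimmer probe set, against 9.12 to 9.16 on the others, and 7.42 for CHRNA9, against 8.36 to 8.53. It held 5.75 for SLC8B1, against 6.24 to 6.25.

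Cochlea array 1 lay above the other cochlea arrays for ATP2B2 on the dimmer probe set, at 10.14 against 9.88 to 9.91, and for CALML4, at 12.78 against 12.56 to 12.59. Cochlea array 2 held 6.82 for KCNMB4, against 5.75 to 5.79, 11.56 for VDAC3, against 11.70 to 11.73, and 3.22 for FAM19A1, against 2.79 to 2.84. Cochlea array 3 held 2.57 for TRPV6, against 3.79 to 3.94. Cochlea array 4 held 5.59 for CHRNA9, against 6.37 to 6.43, and 6.76 for SLC8B1, against 6.19 to 6.24. Utricle array 4 held 4.33 for SLC24A2, against 4.40 on the other utricle arrays.

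The CALB1 values of the utricle, 2.49, 7.47, 6.89 and 2.50, do not meet this criterion, since they fall into 2 pairs.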

How the results depend on the processing

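The log2 differences of CALB1, CALB2 and ATP2B2 kept their direction and their call under every alternative run, including the replicate block. The brighter ATP2B1 probe set kept its direction but lost its call with no filter (0.29), an equal median per array (0.24), the arrays of the larger code (0.23), the code and number as a block (0.24), the 5 arrays of the common code (0.15) and the mean of its probe sets (0.26), and ranged from 0.24 to 0.34 as each array was left out. The dimmer one was -0.003 within the 5 arrays and ranged from 0.15 to 0.37 as each array was left out. The last 2 array groupings were chosen after seeing the data. The cause of these losses was not tested.

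With the replicate number as a block 2520 genes were called up and 2510 down in the utricle, against 2250 and 2260 without it, and of the named genes only KCNMA1 changed its call. Calls in the list of kinases, phosphatases and proteases numbered 6 with no filter and 7 among the probe sets listed as detected, against 11. Those in the list of pump partners ranged from 1 to 3 as each array was left out. With no filter TRPV6, PRKCB, ASPH and HPCAL1 lost their call, and in the larger code TRPV6, PRKCB, CAMK4, HPCAL1 and DLG1. Genes near 0 that were never called turned sign. These were OCM1 (0.13 with quantile normalization, 0.004 with array weights, 0.003 in the larger code, and 0.003 to 0.03 without 1 of utricle array 2 and cochlea arrays 1, 3 and 4, among them 0.01), SLC24A2 (-0.01 with quantile normalization and from -0.09 to 0.16 as each array was left out), SLC9A3R2 (0.01 with quantile normalization), SLC24A5 (-0.002 with equal medians) and CASK (-0.04 with equal medians, -0.03 in the larger code and from -0.02 to 0.06 as each array was left out). Signals near background and near the top of the array limit what can be resolved.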
